A study of Mus musculus with 16 samples.

Results

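The aminoacyl-tRNA synthetase genes were taken as the entries with 36 listed symbols in both deposited count tables, 36 of 22675 genes. Of these, 20 encode cytosolic enzymes or their subunits, and 16, with symbols ending in 2, encode mitochondrial enzymes. The mRNA came from splenic B cells of C57BL/6 mice that bound NIP, were B220+ and CD38+, and lacked CD138, FAS, GL7 and IgD. Sorting took place on day 7 of a response to NP-OVA given in alum with LPS. About 1000 cells went into each Smart-seq2 library, a full-length cDNA method primed on the poly(A) tail. The 4 groups of 4 libraries were KOTP, the tdTomato+ cells of Zfp318ZSDAT/ZSDAT mice, KOTN, the tdTomato- cells of the same genotype, HetTP, the tdTomato+ cells of Zfp318ZSDAT/+ mice, and HetTN, the tdTomato- cells of that genotype. All mice carried AID-Cre, which places Cre under the promoter of an enzyme of activated B cells, and the B1-8hi GFP heavy chain allele. Every group therefore carried at least 1 copy of the reporter allele.

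Aminoacyl-tRNA synthetases attach each amino acid to its tRNA, the step that fixes the meaning of a codon. Cytosol and mitochondria mostly use enzymes from separate nuclear genes, although Kars and Gars each serve both compartments. Several cytosolic enzymes sit together in the multi-synthetase complex on the scaffolds Aimp1, Aimp2 and Eef1e1, and many cytosolic synthetase genes are targets of ATF4, the transcription factor of the amino acid starvation response. An activated B cell that grows, divides or secretes antibody needs a large supply of charged tRNA.

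The library totals ranged from 7748787 to 15742445 counts. Levels are CPM, the counts of a gene scaled to a fixed library total, and levels of different genes are compared only per kilobase of coding length. The Zfp318 level per library was 0.866 to 2.75 CPM in KOTP, 0.446 to 5.42 CPM in KOTN, 92.7 to 133 CPM in HetTP and 78.8 to 152 CPM in HetTN. Of the B cell markers, Cd79a, a signalling chain of the B cell receptor, was at 5478 to 6939 CPM in KOTP, 5411 to 5742 CPM in KOTN, 3817 to 5319 CPM in HetTP and 4937 to 6766 CPM in HetTN. Ms4a1, which encodes CD20, was at 1518 to 1692 CPM in KOTP, 1542 to 1969 CPM in KOTN, 1018 to 1543 CPM in HetTP and 931 to 1087 CPM in HetTN. Pax5, the transcription factor of B cell identity, went the other way, at 30.3 to 56.2 CPM in KOTP, 28.1 to 42.9 CPM in KOTN, 72.4 to 219.8 CPM in HetTP and 38.9 to 224.5 CPM in HetTN. By the edgeR test 4 of the 6 B cell markers rose in each genotype comparison. Among them were Cd79a, Cd79b and Ms4a1 in KOTP relative to HetTP, and Cd22, Cd79b and Ms4a1 in KOTN relative to HetTN. Pax5 fell in both, by 1.54 on the log2 scale in KOTP relative to HetTP (adjusted p = 0.0152) and by 1.61 in KOTN relative to HetTN (adjusted p = 0.0137). Heterozygous libraries differed much more among themselves than homozygous ones: the biological coefficient of variation over all genes was 0.845 in the heterozygous and 0.2 in the homozygous libraries. The tables also differ by genotype in how the authors' divisor relates to the counts, so genotype and table cannot be told apart.

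All 36 synthetase genes passed the filter on low counts, and together they made up 0.244% to 0.406% of the counts of a library. Per kilobase, the median cytosolic gene stood at 44.9 CPM in KOTP, 47.7 CPM in KOTN, 59.6 CPM in HetTP and 58 CPM in HetTN. The median mitochondrial gene stood at 13.6 CPM per kilobase in KOTP, 12.1 in KOTN, 16.2 in HetTP and 12.8 in HetTN. The order of the 36 genes per kilobase was similar between groups, with Spearman's rho across genes from 0.94 to 0.99 over the 6 pairs of groups, and each gene has the same coding length in both groups of a pair. The top of the cytosolic order differed by genotype. Sars, which charges serine tRNA, led with 109 CPM per kilobase in KOTP and 112 in KOTN, whereas Vars, which charges valine tRNA, led with 167 CPM per kilobase in HetTP and 176 in HetTN. Iars, the isoleucine enzyme, was lowest of the cytosolic genes in all 4 groups, at 9.08 CPM per kilobase in KOTP, 9.73 in KOTN, 13.5 in HetTP and 15.3 in HetTN.

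**Figure D1:**
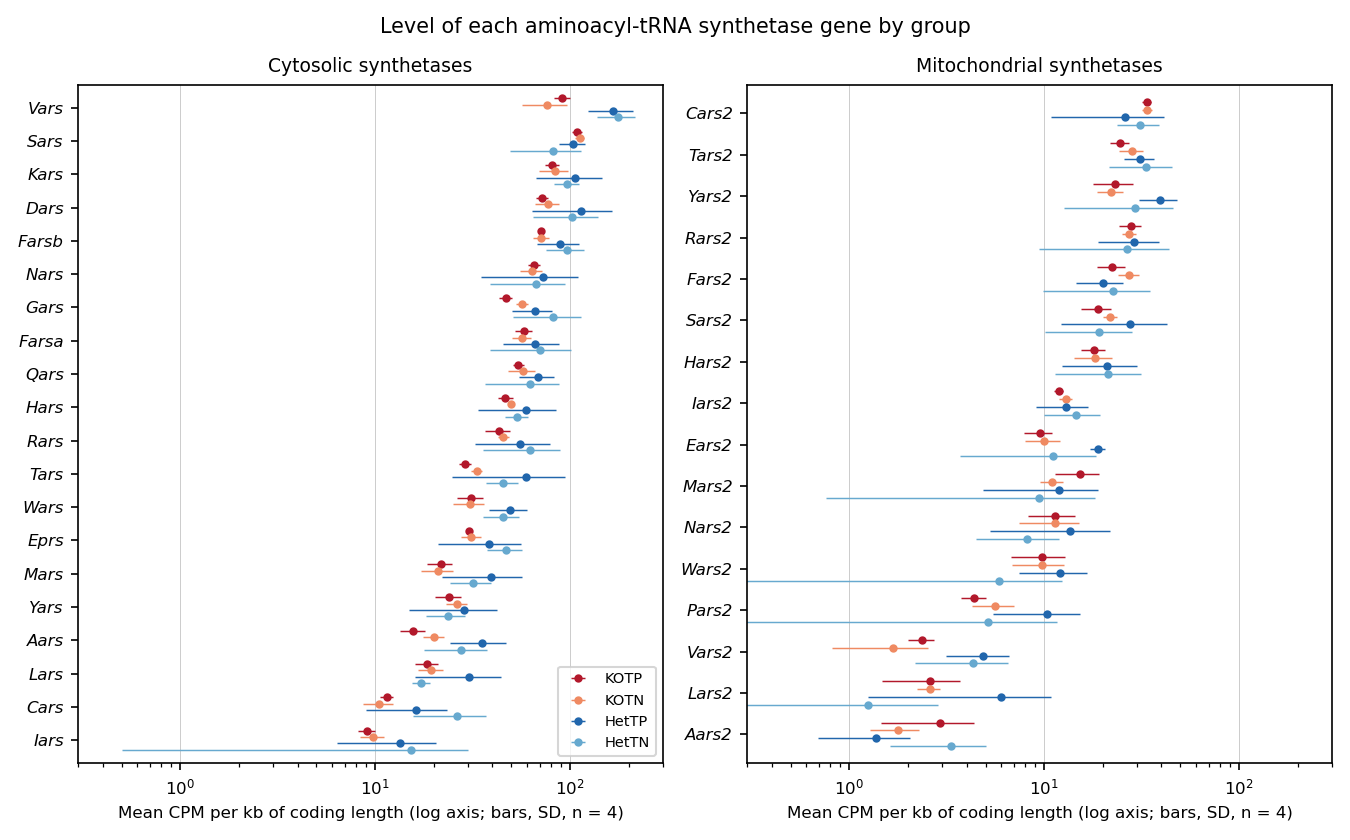
Mean CPM per kilobase of coding length of each synthetase gene in the 4 groups, on a log axis, with bars for the SD over 4 libraries; bars that reach 0 run off the axis. The cytosolic genes lie mostly to the right of the mitochondrial ones, Vars is farther right in HetTP and HetTN than in KOTP and KOTN, and the heterozygous bars are the wider ones.

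For 13 amino acids the list holds a cytosolic and a mitochondrial gene of the same stem. In each of the 4 groups the cytosolic gene had the higher level per kilobase in 11 of these 13 pairs. The largest ratio belonged to valine: Vars stood 38.6-fold above Vars2 per kilobase in KOTP, 46-fold in KOTN, 34.4-fold in HetTP and 40.7-fold in HetTN. Cysteine ran the other way in every group, with a ratio of Cars to Cars2 of 0.34 per kilobase in KOTP, 0.312 in KOTN and 0.624 in HetTP. In HetTN the gap was smaller, with Cars at 26.4 and Cars2 at 31.2 CPM per kilobase. The lowest ratio in HetTN was that of Yars to Yars2, at 0.809. The second pair with the mitochondrial gene on top was isoleucine in KOTP and KOTN and tyrosine in HetTP and HetTN. The cytosolic phenylalanine enzyme is built of subunits from Farsa and Farsb, and Farsb over Farsa per kilobase lay between 1.13 and 1.41 in the KOTP libraries and 1.08 and 1.36 in the KOTN libraries. The same ratio spread from 0.8 to 2.71 in the HetTP libraries and from 0.959 to 2.83 in the HetTN libraries, a wider range than in the homozygous libraries.

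The windows that RefSeq gives for the gene starts (GRCm38.p6, 250 bases before to 50 bases after the start) covered 26 of the 36 genes, 12 cytosolic and 14 mitochondrial. Cars, Hars, Lars, Mars, Nars, Rars, Vars, Wars, Hars2 and Pars2 were not in that table. The C/EBP-ATF response element, the composite site that ATF4 binds, was searched as TGATGNAA and, on the other strand, TTNCATCA. It occurred in 5 of the 12 cytosolic genes with a window, Aars, Tars, Gars, Iars and Yars, and in 0 of the 14 mitochondrial genes, while 3.97% of all 32851 windows held it. The E-box CACGTG, the core site of MYC and related factors, occurred in Aars, Farsb, Iars and Tars and in the mitochondrial Ears2, against 7.15% of all windows, and it overlapped no response element. A match of letters is a description of the window and not evidence that a factor is bound. The 5 windows with the response element are shown 5′ to 3′ on the strand of the gene, with its letters in capitals. Whether the element bears on the levels of these genes was not tested.

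Aars (chr8:111033592-111033891, plus strand): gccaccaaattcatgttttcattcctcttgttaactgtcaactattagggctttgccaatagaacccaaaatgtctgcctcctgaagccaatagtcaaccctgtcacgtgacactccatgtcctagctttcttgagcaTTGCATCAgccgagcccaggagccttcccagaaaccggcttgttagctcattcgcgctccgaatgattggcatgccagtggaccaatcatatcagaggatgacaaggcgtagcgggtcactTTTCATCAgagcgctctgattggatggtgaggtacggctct

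Tars (chr15:11399609-11399908, minus strand): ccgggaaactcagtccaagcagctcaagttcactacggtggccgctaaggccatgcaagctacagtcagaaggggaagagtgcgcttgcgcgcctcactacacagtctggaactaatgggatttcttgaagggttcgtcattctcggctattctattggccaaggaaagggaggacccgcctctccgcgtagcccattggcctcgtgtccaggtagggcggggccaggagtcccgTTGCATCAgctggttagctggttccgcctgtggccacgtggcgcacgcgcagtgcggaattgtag

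Gars (chr6:55037751-55038050, plus strand): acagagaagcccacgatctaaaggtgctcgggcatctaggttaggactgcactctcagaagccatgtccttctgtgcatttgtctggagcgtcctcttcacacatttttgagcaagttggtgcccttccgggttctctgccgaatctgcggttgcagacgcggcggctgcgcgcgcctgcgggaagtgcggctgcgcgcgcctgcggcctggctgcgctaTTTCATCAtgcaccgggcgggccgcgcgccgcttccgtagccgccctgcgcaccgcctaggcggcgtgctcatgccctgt

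Iars (chr13:49681880-49682179, plus strand): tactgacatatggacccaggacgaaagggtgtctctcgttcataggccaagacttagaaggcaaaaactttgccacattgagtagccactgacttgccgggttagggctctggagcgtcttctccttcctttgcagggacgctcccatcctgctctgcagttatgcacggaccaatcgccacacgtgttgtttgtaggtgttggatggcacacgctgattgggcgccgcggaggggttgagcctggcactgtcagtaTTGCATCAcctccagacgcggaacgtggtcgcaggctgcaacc

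Yars (chr4:129189653-129189952, plus strand): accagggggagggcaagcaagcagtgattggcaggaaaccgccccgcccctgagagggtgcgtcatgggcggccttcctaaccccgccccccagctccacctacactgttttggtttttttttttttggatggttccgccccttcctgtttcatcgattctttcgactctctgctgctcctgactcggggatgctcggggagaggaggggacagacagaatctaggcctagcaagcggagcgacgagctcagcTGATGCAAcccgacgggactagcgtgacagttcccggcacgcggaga

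Aars held the element in 2 places, starting at base 139 and base 260 of its window, and the other genes in 1 place each. In Aars (the second match), Iars and Yars it lay within the last 50 bases, after the annotated start.

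Within homozygous cells, the ranges of the summed synthetase levels overlapped between tdTomato+ and tdTomato- cells. The 20 cytosolic genes summed to 2051 ± 20.7 CPM in KOTP and 2077 ± 66.1 CPM in KOTN (SD, n = 4 each), and the 16 mitochondrial genes to 429 ± 19.9 CPM in KOTP and 440 ± 5.96 CPM in KOTN. No synthetase gene passed the edgeR quasi-likelihood test on the 8 homozygous libraries (0 of 36, with 3 at an unadjusted p under 0.05; 0 by DESeq2 and 0 by limma voom), where 2.37% of all genes tested were called. The cytosolic log2 fold changes of KOTP over KOTN ranged from -0.32 (Aars) to 0.28 (Vars), with standard errors between 0.081 and 0.18. Their median was -0.03, beside 0.01 over all genes tested. The mitochondrial log2 fold changes ranged from -0.33 (Pars2) to 0.72 (Aars2), with standard errors up to 0.35. Gars, the glycine enzyme, had 105, 99.4, 112 and 93.1 CPM in KOTP libraries 1 to 4, against 118, 121, 137 and 119 CPM in the KOTN libraries. Its groups did not overlap, also after TMM scaling, where 4.39% of all genes were lower without overlap, yet the difference missed the threshold (log2 fold change -0.24, SE 0.092, edgeR adjusted p = 0.223). Without KOTN library 1, in which Vars stood at 417 CPM, Vars was called higher in KOTP.

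In heterozygous cells, no difference between tdTomato+ and tdTomato- cells was detectable for any synthetase gene at the spread of these libraries. The edgeR test called 0 of 36 synthetase genes, with 0 of them at an unadjusted p under 0.05, and 0% of all genes tested, with 487 genes at an unadjusted p under 0.05. DESeq2 called 38 genes in all and 0 synthetase genes. The standard errors of the log2 fold changes were 0.21 to 0.56 for the cytosolic genes and 0.32 to 1.6 for the mitochondrial genes. Their medians were 0.32 and 0.57, against medians of 0.11 and 0.18 in the homozygous comparison. The cytosolic sum was 2949 ± 401 CPM in HetTP and 2883 ± 501 CPM in HetTN, and the mitochondrial sum 510 ± 64.1 CPM in HetTP and 452 ± 43.2 CPM in HetTN (SD, n = 4 each). Of the mitochondrial genes, Lars2 and Pars2 had no count in HetTN libraries 2 and 4, and Mars2 and Wars2 had none in HetTN library 4. A count of 0 there allows a level of up to 0.258 CPM in library 2 and 0.261 CPM in library 4 (3 counts; counting error only). All 4 genes had counts in every homozygous library.

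The spread of single genes showed the same contrast between the tables. The median coefficient of variation of the cytosolic genes was 8.46% in KOTP, 12.3% in KOTN, 42.6% in HetTP and 29.7% in HetTN. For all genes tested with a mean of at least 10 CPM it was 13.2% in KOTP, 13.2% in KOTN, 34.1% in HetTP and 39.6% in HetTN. The coefficient of variation was smaller in KOTP than in HetTP for 34 of 36 synthetase genes, and smaller in KOTN than in HetTN for 32 of 36. The tdTomato effect itself was compared between the genotypes in the fit of all 16 libraries, and 0 of 36 synthetase genes were called (1 at an unadjusted p under 0.05; 0 by DESeq2), against 0.122% of all genes tested (8 higher and 5 lower; 2 higher and 4 lower with library totals alone). That 1 gene was Aars2, the mitochondrial alanine enzyme and lowest per kilobase of its class over the 16 libraries. It had 12.5, 4.75, 12 and 4.96 CPM in the KOTP libraries and 5.94, 3.23, 6.66 and 5.14 CPM in the KOTN libraries. In heterozygous cells it had 5.04, 3.62, 1.4 and 6.02 CPM in the HetTP libraries and 7.78, 17, 8.88 and 5.48 CPM in the HetTN libraries. The CPM values overlapped in both pairs of groups. After TMM scaling the heterozygous groups were apart, at 1.31 to 5.465 in HetTP against 5.69 to 17.2 in HetTN, as 2.27% of all genes tested were in that direction, and the homozygous groups still overlapped. The difference of the effects was 2.13 on the log2 scale (SE 0.99, edgeR adjusted p = 0.522).

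**Figure D2:**
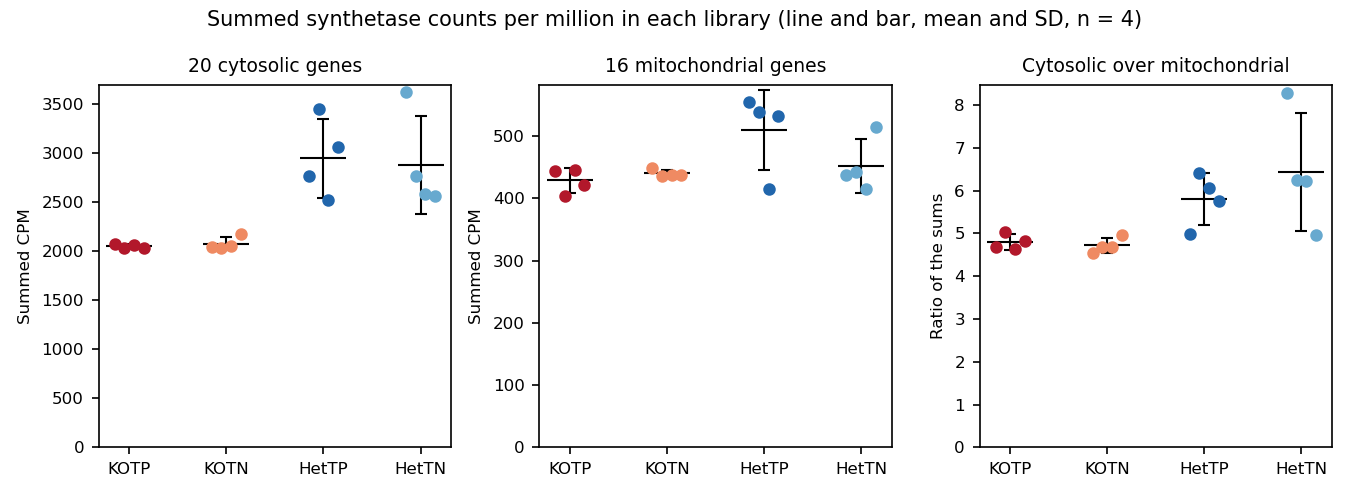
Summed CPM of the 20 cytosolic genes, summed CPM of the 16 mitochondrial genes, and their ratio, with 1 point per library and the mean and SD of 4 libraries. The cytosolic sums of KOTP and KOTN all lie below those of HetTP and HetTN, whereas the mitochondrial sums overlap.

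Between genotypes, the cytosolic sum was lower in homozygous cells in both populations. In tdTomato+ cells it ranged from 2030 to 2075 CPM in KOTP, against 2519 to 3452 CPM in HetTP. In tdTomato- cells it ranged from 2039 to 2176 CPM in KOTN, against 2561 to 3621 CPM in HetTN. No homozygous library reached a heterozygous one, and this also held after TMM scaling, which corrects for differences in library composition (2160 to 2236 in KOTP against 2352 to 3125 in HetTP, and 2140 to 2243 in KOTN against 2604 to 3266 in HetTN, as TMM-scaled CPM). With upper quartile scaling the tdTomato+ groups overlapped, at 2240 to 2322 in KOTP against 2269 to 3049 in HetTP, and the tdTomato- groups did not, at 2200 to 2283 in KOTN against 2457 to 3205 in HetTN. Vars alone made up 17.5% of the cytosolic sum in KOTP, 14.5% in KOTN, 22.2% in HetTP and 23.9% in HetTN. Whether the sums stayed separate without Vars depended on the scaling. With library totals they were 1641 to 1745 CPM in KOTP against 1879 to 2966 CPM in HetTP, still apart, and 1625 to 1919 CPM in KOTN against 1876 to 2727 CPM in HetTN, which overlapped. With TMM scaling both pairs overlapped, at 1742 to 1838 in KOTP against 1677 to 2685 in HetTP and 1748 to 1978 in KOTN against 1949 to 2460 in HetTN. With RLE, the scaling of DESeq2, they overlapped in tdTomato+ cells (1724 to 1811 in KOTP against 1702 to 2732 in HetTP) and stayed apart in tdTomato- cells (1730 to 1946 in KOTN against 1996 to 2516 in HetTN). With upper quartile scaling both pairs overlapped.

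The mitochondrial sum overlapped between genotypes, at 404 to 445 CPM in KOTP against 415 to 555 CPM in HetTP, and 436 to 449 CPM in KOTN against 416 to 515 CPM in HetTN. The ratio of the cytosolic to the mitochondrial sum was 4.63 to 5.04 in KOTP against 4.98 to 6.4 in HetTP, and 4.55 to 4.97 in KOTN against 4.97 to 8.29 in HetTN. The ranges overlapped in tdTomato+ cells and met at 4.97 in tdTomato- cells. In bulk samples, fewer cells of a type and less RNA per cell cannot be told apart.

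Of the single cytosolic genes, 2 of 20 were called in KOTP over HetTP, Aars and Vars, and both were lower. That share lies near the background, since 10.3% of all genes tested were called in either direction and 5.22% were called lower, and nothing particular to the synthetases can be read from it. Over all genes, 49.2% of the calls were higher in KOTP (59.6% with upper quartile scaling, 27.8% with library totals alone). The cytosolic log2 fold changes were negative for 17 of 20 genes, with a median of -0.22 beside -0.03 over all genes tested. With library totals alone the median of all genes moved to -0.25 and the cytosolic median to -0.44, and with upper quartile scaling to 0.07 and -0.12. Sars, Nars and Farsa had positive log2 fold changes, and the cytosolic genes were not tested as a group against the other genes. Of the mitochondrial genes 0 of 16 were called (0 at an unadjusted p under 0.05; 0 by DESeq2 on all 16 libraries and 1 by DESeq2 on the 8 compared), with a median of -0.04 and a range from -1.01 (Pars2) to 1.31 (Aars2). On TMM-scaled values, 3 of 20 cytosolic genes (Aars, Tars and Vars) had every KOTP library below every HetTP library, where 8.71% of all genes tested did so. Of the mitochondrial genes, 2 of 16 did so, Ears2 and Pars2. In the other direction Sars, 1 of 20 cytosolic genes, had every TMM-scaled KOTP library above every HetTP library (170 to 199.8 in KOTP against 123 to 168 in HetTP), as 11.4% of all genes tested did. Its unscaled CPM values overlapped, and its log2 fold change was 0.30 (SE 0.18, edgeR adjusted p = 0.392).

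In tdTomato- cells the edgeR test called 2 of 20 cytosolic genes in KOTN over HetTN, Cars and Vars, both lower, against 10.5% of all genes tested in either direction and 4.88% lower. Of all calls, 53.5% were higher in KOTN (63.5% with upper quartile scaling, 43.4% with library totals alone). The log2 fold change was negative for 16 of 20 cytosolic genes, with a median of -0.35 beside 0.005 over all genes tested. With library totals alone these medians were -0.44 and -0.09, and with upper quartile scaling -0.27 and 0.09. The mitochondrial genes had a median of 0.15 and 0 of 16 calls, with 1 at an unadjusted p under 0.05 and 0 by DESeq2. Every TMM-scaled KOTN library lay below every HetTN library for 2 of 20 cytosolic genes, Tars and Vars, where 7.15% of all genes tested did so. No synthetase gene had every KOTN library above every HetTN library, where 12.5% of all genes did. The genotype comparisons contrast separate libraries but are not independent. They share the fit of all 16 libraries with its estimate of spread, and both rest on the same 2 tables.

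**Figure D3:**
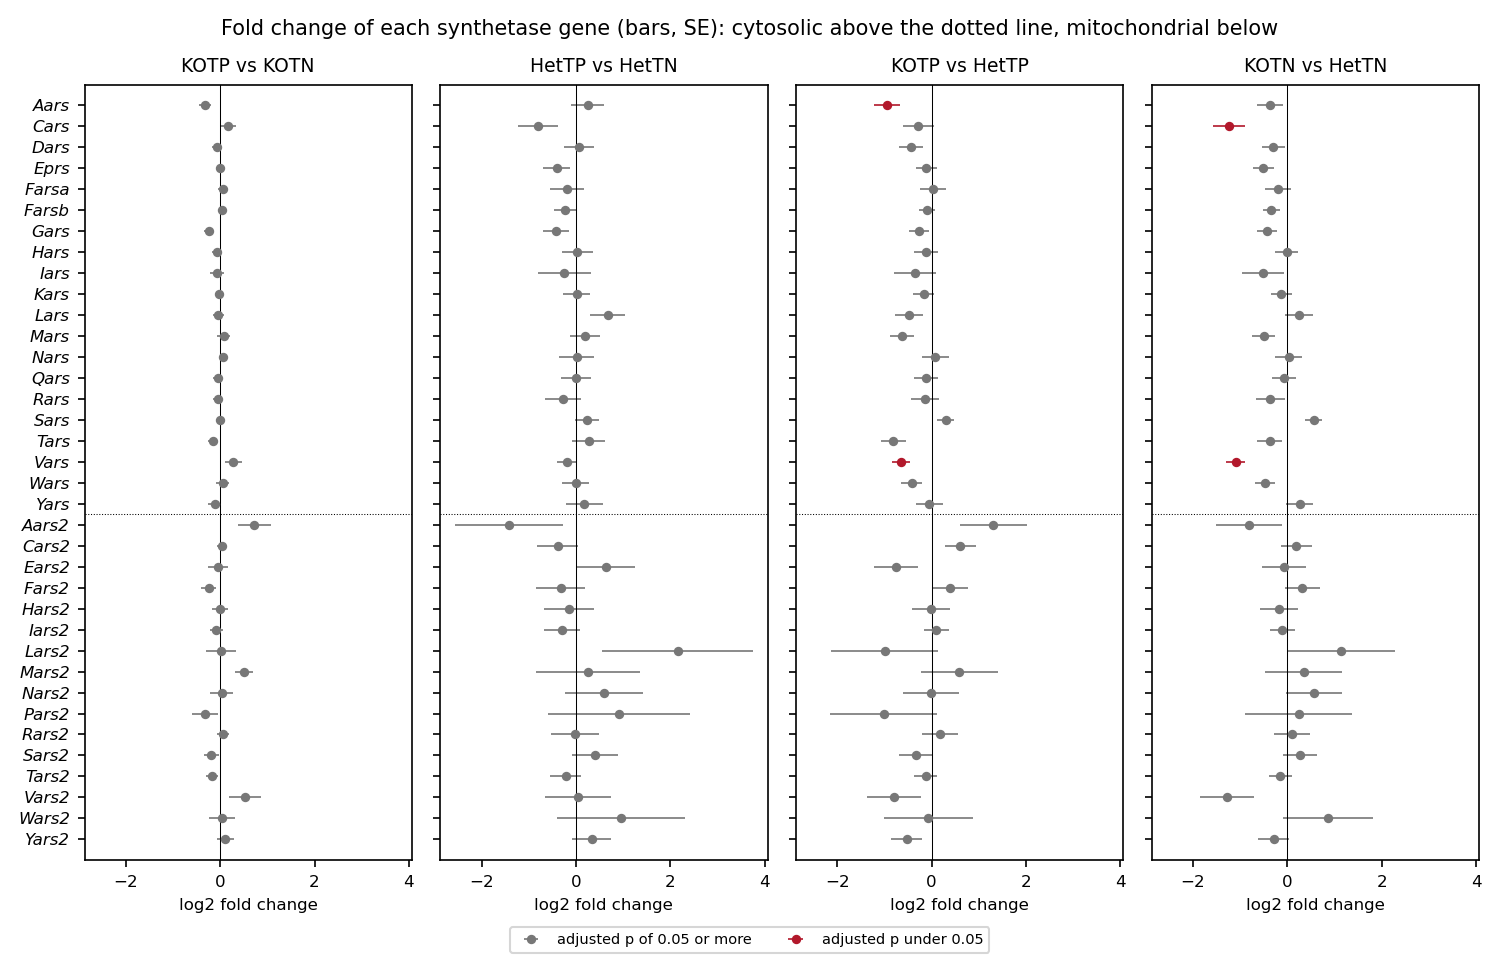
log2 fold change with its standard error (edgeR) for each synthetase gene in 4 comparisons, cytosolic above and mitochondrial below the dotted line, with adjusted p under 0.05 in red. Points in KOTP vs KOTN lie close to 0 with short bars, and Vars is the gene in red in both genotype comparisons.

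Vars (ENSMUSG00000007029, chr17:35000987-35016322, plus strand, GRCm38) encodes the valine enzyme and had the highest level per kilobase over the 16 libraries. It had 348, 397, 318 and 370 CPM in KOTP libraries 1 to 4, against 887, 486, 602 and 643 CPM in the HetTP libraries. In tdTomato- cells it had 417, 266, 264 and 256 CPM in the KOTN libraries, against 894, 657, 524 and 684 CPM in the HetTN libraries. Every homozygous library lay below every heterozygous one, and 3 of the 4 KOTN libraries lay close together with library 1 above them. The mean was 358 ± 33.7 CPM in KOTP and 655 ± 169 CPM in HetTP, and 301 ± 77.4 CPM in KOTN and 690 ± 153 CPM in HetTN (SD, n = 4 each). Vars fell by 1.10 on the log2 scale in KOTN relative to HetTN (SE 0.19, edgeR adjusted p = 0.00126). That call held in all 28 alternatives run, with log2 fold changes from -1.31 to -1.0 and adjusted p from 4.16e-07 to 0.0104. In KOTP relative to HetTP, Vars fell by 0.64 on the log2 scale (SE 0.19, edgeR adjusted p = 0.0373). This call held in 18 of 27 alternatives (log2 fold change -0.87 to -0.47, adjusted p 0.00141 to 0.133) and was lost without any 1 of the 4 KOTP libraries, HetTP library 1, 3 or 4, or KOTN library 2, and with upper quartile scaling (adjusted p = 0.0842). Whether the fall differed between the populations is the tdTomato effect tested above, which gave 0.46 (SE 0.27, edgeR adjusted p = 0.676).

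Aars (ENSMUSG00000031960, chr8:111033144-111057664, plus strand) encodes the alanine enzyme. It had 49.8, 40.5, 39.3 and 52.6 CPM in the KOTP libraries, against 84.9, 126, 135 and 66 CPM in the HetTP libraries, without overlap. In tdTomato- cells it had 60.3, 59.1, 48.9 and 65.5 CPM in the KOTN libraries, against 97.8, 96.7, 90 and 37.8 CPM in the HetTN libraries. There HetTN library 4 lay below every KOTN library. Aars fell by 0.95 on the log2 scale in KOTP relative to HetTP (SE 0.28, edgeR adjusted p = 0.0322). The call held in 19 of 27 alternatives (log2 fold change -1.18 to -0.78, adjusted p 0.00449 to 0.107) and was lost with upper quartile scaling (adjusted p = 0.0516) and without any 1 of the 4 KOTP libraries or HetTP library 2 or 3. In KOTN over HetTN its log2 fold change was -0.36 (SE 0.27, edgeR adjusted p = 0.489).

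Cars (ENSMUSG00000010755, chr7:143557230-143600090, minus strand) encodes the cytosolic cysteine enzyme. It had 26.3, 25.3, 20.8 and 32 CPM in the KOTN libraries, against 85.4, 85.4, 63.5 and 28.6 CPM in the HetTN libraries. Only HetTN library 4 lay within the range of KOTN. Cars fell by 1.23 on the log2 scale in KOTN relative to HetTN (SE 0.34, edgeR adjusted p = 0.0263). The call held in 20 of 28 alternatives (log2 fold change -1.47 to -1.06, adjusted p 0.00492 to 0.0882). It was lost in the fit of the 8 compared libraries alone (adjusted p = 0.0505) and without any 1 of the 4 KOTN libraries or HetTN library 1 or 2. In tdTomato+ cells it had 31.4, 27.7, 28.9 and 26.5 CPM in the KOTP libraries, against 23.7, 45.7, 63.4 and 28.6 CPM in the HetTP libraries, which overlapped (log2 fold change -0.28, SE 0.33, edgeR adjusted p = 0.749).

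**Figure D4:**
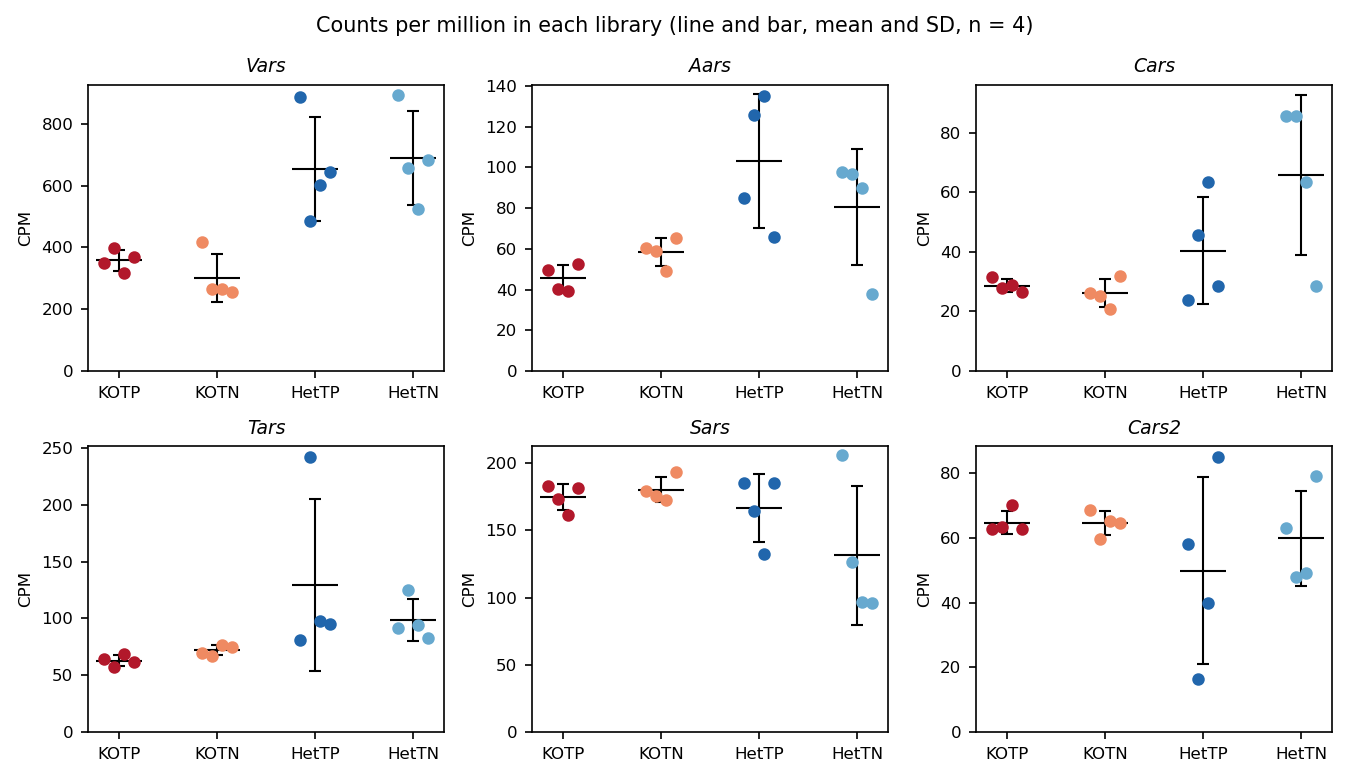
CPM of 6 synthetase genes in each library, with the mean and SD of 4 libraries per group. For Vars all KOTP and KOTN points lie below all HetTP and HetTN points, for Aars and Cars 1 HetTN library lies within or below the KOTN range, and the points of Cars2 overlap.

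Tars and Sars came near the threshold and were picked out after their values were seen. Tars, the threonine enzyme, had 64.2, 57.6, 68.5 and 61.9 CPM in the KOTP libraries, against 81.5, 242, 97.7 and 95.3 CPM in the HetTP libraries. HetTP library 2 stood far above the others, and the log2 fold change was -0.81 (SE 0.27, edgeR adjusted p = 0.0658). Tars was called lower with DESeq2 on all 16 libraries, with library totals alone and without HetTP library 1 or 4. Sars had 179, 175, 172 and 193 CPM in the KOTN libraries, against 206, 126, 96.8 and 96.2 CPM in the HetTN libraries. It was the cytosolic gene with the highest positive log2 fold change there (0.56, SE 0.18, edgeR adjusted p = 0.0523), and was called higher with upper quartile scaling, with DESeq2 on all 16 libraries and without HetTN library 1.

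Iars had 33.5, 32.3, 32.5 and 39.4 CPM in the KOTP libraries, against 44.4, 88.2, 48.8 and 23.2 CPM in the HetTP libraries. In tdTomato- cells it had 32.4, 40.5, 32.1 and 42.3 CPM in the KOTN libraries, against 141, 23.2, 41.2 and 26.6 CPM in the HetTN libraries, so that HetTN library 1 alone carried the higher mean. Neither difference passed the edgeR test (adjusted p = 0.78 in tdTomato+ and 0.574 in tdTomato- cells). Cars2, the mitochondrial cysteine enzyme and highest of its class per kilobase over the 16 libraries, had 62.7, 63.2, 69.9 and 62.8 CPM in the KOTP libraries, against 58.1, 16.4, 40 and 84.8 CPM in the HetTP libraries. It had 68.5, 59.5, 65.2 and 64.4 CPM in the KOTN libraries, against 63.1, 47.9, 49.1 and 79 CPM in the HetTN libraries. Its groups overlapped in both populations (log2 fold change 0.61, SE 0.33, edgeR adjusted p = 0.324, and 0.19, SE 0.33, adjusted p = 0.806).

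Divided by role, the 8 genes of the multi-synthetase complex (Dars, Eprs, Iars, Kars, Lars, Mars, Qars and Rars) had no call in either genotype comparison (0 of 8 each by edgeR, with 1 at an unadjusted p under 0.05 in each). DESeq2 on all 16 libraries called none of them, and DESeq2 on the 8 compared libraries called Eprs in KOTN over HetTN. In KOTP over HetTP, Mars was called lower with library totals alone and Lars lower without HetTP library 3. Their log2 fold changes were negative for 8 of 8 in KOTP over HetTP (median -0.26) and 7 of 8 in KOTN over HetTN (median -0.33). In each comparison 2 of the 12 other cytosolic genes were called. With 10.3% and 10.5% of all genes called, neither subgroup's count can be told from the background. The log2 fold changes of the 12 had medians of -0.19 in KOTP over HetTP and -0.35 in KOTN over HetTN. The 12 cytosolic genes linked to ATF4 had a median of -0.31 in KOTP over HetTP and -0.4 in KOTN over HetTN, and the other 8 had -0.13 and -0.25. The differences between these subgroups were not tested.

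Among 16 partners of the synthetases that could be tested, the complex scaffold Aimp2 fell by 0.70 on the log2 scale in KOTP relative to HetTP (edgeR adjusted p = 0.0174), and Prorsd1, an editing-domain protein for prolyl-tRNA, rose by 0.80 (adjusted p = 0.0246). Aimp2 averaged 59.3 ± 5.5 CPM in KOTP and 113 ± 27.1 CPM in HetTP, and Prorsd1 averaged 82 ± 4.61 CPM in KOTP and 54.7 ± 17.1 CPM in HetTP (SD, n = 4 each). No partner passed in KOTN over HetTN (0 of 16 by edgeR, with 2 at an unadjusted p under 0.05). Of the 9 elongation factors, Eef1b2, a nucleotide exchange subunit, rose by 0.76 in KOTP relative to HetTP (adjusted p = 0.0029), and Eef2, the translocase, fell by 0.56 in KOTN relative to HetTN (adjusted p = 0.0115). Of 18 tested genes of ATF4 and amino acid supply, Shmt2, a mitochondrial serine enzyme, was the gene called. It fell by 0.70 in KOTP relative to HetTP (adjusted p = 0.02) and by 0.65 in KOTN relative to HetTN (adjusted p = 0.0329). The 18 had a median log2 fold change of -0.58 in KOTP over HetTP, beside -0.03 over all genes tested. In KOTN over HetTN their median was -0.41, beside 0.005. By edgeR 9 and 5 of them had an unadjusted p under 0.05, against 2272 and 2515 of all 10687 genes tested. Atf4 itself averaged 231 ± 21.7 CPM in KOTP and 251 ± 40.6 CPM in HetTP, and 235 ± 23.4 CPM in KOTN and 256 ± 49.2 CPM in HetTN. Of all genes tested, 10.3% were called in KOTP over HetTP and 10.5% in KOTN over HetTN. The calls came to at most 2 of 16 partners, 1 of 9 elongation factors and 1 of 18 genes of ATF4 and amino acid supply. Nothing particular to these lists can be read from these calls, and the lists were not tested as groups.

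Of 8 genes of growth and division, 5 fell in KOTP relative to HetTP by the edgeR test (Mcm5, Mki67, Fbl, Pcna and Ncl) and 4 in KOTN relative to HetTN (Mcm5, Mki67, Pcna and Fbl), while Npm1, Myc and Nop56 passed in neither comparison. Mki67, a marker of dividing cells, averaged 66.7 ± 11.7 CPM in KOTP and 312 ± 138 CPM in HetTP, and 106 ± 17.3 CPM in KOTN and 323 ± 63.4 CPM in HetTN (SD, n = 4 each). All 5 cycling markers fell in both genotype comparisons, and their sum was 130.4 to 243 CPM in KOTP against 363 to 1091 CPM in HetTP, and 261 to 322 CPM in KOTN against 575 to 1077 CPM in HetTN. Division genes also fell in KOTP relative to KOTN. The 5 cycling markers had a median log2 fold change of -0.66 there, against -1.84 in KOTP over HetTP and -1.52 in KOTN over HetTN. In KOTP over KOTN, Mcm5 fell by 0.74 on the log2 scale (edgeR adjusted p = 0.00176) and Mki67 by 0.65 (adjusted p = 0.00563). All 5 cycling markers had negative log2 fold changes in that comparison, with 2 called (Mki67 and Cdk1) and 4 at an unadjusted p under 0.05.

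Summed levels of T cell, macrophage, plasma cell and germinal center markers were lower in homozygous libraries, whereas those of granulocyte markers overlapped. The 4 granulocyte markers summed to 0.698 to 1.98 CPM in KOTP against 0 to 12.5 CPM in HetTP. In tdTomato- cells they summed to 0 to 1.64 CPM in KOTN against 0 to 278 CPM in HetTN. The sort kept B220+ cells and was set to leave out CD138+, FAS+ and GL7+ cells, the gates for plasma and germinal center cells. The 8 T cell markers summed to 38.5 to 49.5 CPM in KOTP against 214 to 676 CPM in HetTP, and 31.1 to 41.7 CPM in KOTN against 221 to 537 CPM in HetTN, with Cd4 at 0 in all 4 groups and Cd3e and Cd8a at 0 in KOTP and KOTN. Trac was also at 0 in KOTN, Cd3g in KOTP and Cd5 in HetTN. The edgeR test called 2 of 5 tested T cell markers lower in KOTP over HetTP. In KOTN over HetTN it called 2 lower and 1 higher of 5, the latter with a log2 fold change of 8.89. The 10 macrophage markers summed to 70.03 to 102 CPM in KOTP against 132 to 677 CPM in HetTP, and 99 to 139.8 CPM in KOTN against 479 to 1200 CPM in HetTN, with 5 and 6 of 10 called lower. Of these 10, Adgre1, which encodes F4/80, ran the other way, at 29.7 to 52.3 CPM in KOTP against 0 to 24.5 CPM in HetTP and 32.4 to 44.6 CPM in KOTN against 0 to 21.6 CPM in HetTN, and passed the test in neither (edgeR adjusted p = 0.275 and 0.307). The 6 plasma cell markers summed to 74.8 to 109 CPM in KOTP against 260.5 to 359 CPM in HetTP, and 103 to 209.6 CPM in KOTN against 263 to 842 CPM in HetTN, with 2 and 1 of 5 called lower. The 6 germinal center markers summed to 189.6 to 259.6 CPM in KOTP against 509.8 to 900 CPM in HetTP, and 304 to 420.2 CPM in KOTN against 606 to 1023 CPM in HetTN, with 4 and 3 of 6 called lower. The part of dividing cells and of these other cell types in the lower synthetase levels was not tested.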

How the data were processed

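The submitters' processing notes name Trim Galore, STAR 2.2.0, featureCounts and the build mm10. The strand setting and the treatment of multi-mapping reads are not given in the sources used here. For each genotype the authors deposited a table of raw counts on coding exons (CDS counts per the file headers). The authors' RPM columns imply a different divisor in each table (1.35 to 1.5 counts per mapped read for heterozygous libraries, 0.369 to 0.419 for homozygous libraries), and entered no result other than these figures.

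The tables were joined on the symbol (22675 genes; 4 entries of duplicated names and 1 without a partner left out per table). Positions and coding lengths come from GENCODE M21 (GRCm38), where the coding exons of 0 of the 36 genes overlap those of another gene. Counts were scaled with TMM, filtered with filterByExpr and tested with the robust quasi-likelihood test of edgeR 4.0.16 (R 4.3.3, limma 3.58.1), Benjamini-Hochberg adjusted over all genes tested and called under 0.05. Comparisons within a genotype used its 8 libraries, and those between genotypes and of the tdTomato effects all 16. The standard errors were derived from the test, as the absolute log2 fold change over the square root of its F statistic. CPM values are scaled by the library total without TMM, so their ratios differ from the fitted fold changes. Genes described in full were those called with a mean of at least 10 CPM and the highest and lowest per kilobase of each class. The members and lists were chosen with earlier results of these data known. Alternatives were RLE and upper quartile scaling, library totals alone, no filter, 5 CPM in 4 libraries, DESeq2 1.42.0, limma voom with sample weights, a replicate block, another choice of libraries and each replicate left out; 3 were added after the data were seen. The procedure was also run on simulated data in which 200 genes were changed by 1 or 2 on the log2 scale. Smaller changes were not simulated, and the outcome is not reported here. Whether each library is a separate animal is not in the labels; the p-values therefore cover library-to-library spread, which may be technical. Reads carried no molecular identifiers.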

Additional observations from a re-analysis of the deposited data

Results flagged for a closer look

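In groups of 4 libraries, a library was picked out where its gap to the nearest other took up more of the group's range than Dixon's 95% critical value. Of 144 groups (36 genes in 4 groups), 13 were picked out, and chance alone gives about 1 in 20. They fell to all groups, with 4 in KOTP, 3 in KOTN, 3 in HetTP and 3 in HetTN.

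In KOTP, Iars stood at 39.4 CPM in library 4 (others 32.3 to 33.5), Cars2 at 69.9 CPM in library 3 (others 62.7 to 63.2), Ears2 at 18.5 CPM in library 4 (others 13.2 to 13.9) and Rars2 at 57.3 CPM in library 1 (others 44.4 to 45.8). In KOTN, Gars stood at 137 CPM in library 3 (others 118 to 121), Nars at 88.3 CPM in library 1 (others 114 to 117) and Vars at 417 CPM in library 1 (others 256 to 266). In HetTP, Farsa stood at 53.5 CPM in library 4 (others 111 to 122), Tars at 242 CPM in library 2 (others 81.5 to 97.7) and Nars2 at 1.78 CPM in library 3 (others 25.1 to 25.6). In HetTN, Aars stood at 37.8 CPM in library 4 (others 90 to 97.8), Eprs at 149 CPM in library 2 (others 229 to 242) and Iars at 141 CPM in library 1 (others 23.2 to 41.2).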

How the results depend on the processing

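None of the 4 calls of a synthetase gene changed direction under the alternatives run. Of the calls, Vars in KOTN over HetTN held in all 28 alternatives, and those of Aars, Cars and of Vars in KOTP over HetTP did not; the cause was not tested. The count of cytosolic genes called in KOTP over HetTP was 0 with upper quartile scaling, 4 with library totals alone (Aars, Mars, Tars and Vars), 1 with a replicate block, and 0 to 2 with 1 library left out. With DESeq2 on all 16 libraries it was 3 (Aars, Tars and Vars). The count in KOTN over HetTN was 1 in the fit of the 8 compared libraries and 1 to 2 with 1 library left out. It was 3 with upper quartile scaling and with DESeq2 on all 16 libraries (Cars and Vars lower, Sars higher). It was also 3 with DESeq2 on the 8 compared libraries (Cars, Eprs and Vars lower). In KOTP over KOTN the count was 0 to 1. DESeq2 on the 8 compared libraries, added after the data were seen, called 1 mitochondrial gene in KOTP over HetTP, Ears2.

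Over all genes, calls in KOTP over KOTN numbered 236, against 358 with DESeq2, 358 with voom, 2 in the fit of all 16 libraries and 128 to 396 with 1 library left out (396 without KOTN library 1, 128 without library 2 and 148 without library 4). In HetTP over HetTN 0 genes were called, against 1 without the filter, 38 with DESeq2 and 114 in the fit of all 16 libraries. Calls in KOTP over HetTP numbered 1099, against 1681 with DESeq2 on the 8 compared libraries and 722 to 1296 with 1 library left out (722 without KOTP library 4). Calls in KOTN over HetTN numbered 1121, against 724 in the fit of the 8 compared libraries and 608 to 1305 with 1 left out (728 or fewer without any 1 KOTN library). The difference of the tdTomato effects gave 13 calls, against 6 with library totals alone, 194 with DESeq2, 7 with voom, 2 with a replicate block, 1 to 41 with 1 library left out (1 without any homozygous library, 28 to 41 without any HetTN library) and 116 without HetTN libraries 2 and 4 (added after the data were seen). Same-numbered libraries did not vary together (correlations of deviations from the group means -0.03 to 0.09). The labels do not say whether they share an animal, and such correlations cannot decide it, so the replicate block is kept as an alternative. With the block the edgeR adjusted p was 0.065 for Aars in KOTP over HetTP and 0.0539 for Cars in KOTN over HetTN. Sars was called higher in KOTN over HetTN with it.

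The spread of the heterozygous libraries limits detection: standard errors reached 1.6 on the log2 scale for mitochondrial genes in HetTP over HetTN.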
